A study of Homo sapiens with 32 samples.

Results

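The regions described here are 1318 bins of 10 kb, of 287410 such bins on chromosomes 1 to 22, in which islands of the histone mark H3K27me3 covered more of the bin in cells treated with an EZH2 inhibitor than in cells without it. A bin was selected when its mean coverage in the 8 libraries with the EZH2 inhibitor exceeded the mean in the 8 libraries without it by at least 25 percentage points. The bins were thus chosen by the measured difference itself, and that difference is given below as a description with no test. The rest of the report calls them gained bins, and calls the 8894 bins that were at least 25 points lower with the inhibitor lost bins.

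The cells were MDA-MB-231, an established line of triple-negative breast cancer. They fell into 4 groups, each with 24 h of treatment: the EZH2 inhibitor together with a p38 MAP kinase inhibitor (Combo), the EZH2 inhibitor alone (EPZ), the p38 inhibitor alone (P38i), and no treatment (Control). Each group had 4 ChIPmentation libraries for H3K27me3, an assay in which the precipitated chromatin is tagged with sequencing adaptors by a transposase while still on the beads. The 16 H3K27me3 libraries each gave a list of called islands, and the 16 matching IgG libraries were not analysed here. All groups were the same line in the same medium, and nothing in the labels tells whether replicates came from separate cultures; their spread may thus be technical only. The lists give island bounds only, with no read counts, so depth is unknown and every value is the percent of a bin that was called as island, not an amount of the mark. Covered length ran from 462 to 599 Mb in the libraries with the EZH2 inhibitor and from 473 to 656 Mb in those without it.

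EZH2 is the catalytic subunit of Polycomb repressive complex 2, which methylates lysine 27 of histone H3. The trimethylated form, H3K27me3, marks genes that are held silent, among them developmental regulators in cells where they are not used, and it also forms broad low domains over gene-poor chromatin. Inhibitors of the enzyme block new methylation, and the existing mark is then lost mainly as cells divide and replace histones. Clusters of zinc finger genes, many of them on chromosome 19, are best known as carriers of another repressive mark, H3K9me3.

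Of the gained bins, 15 (1.14%) held the promoter of a protein-coding gene, against 3.93% of the tested bins, which are the 87730 bins with a mean coverage of 5 to 95% over the 16 libraries. With lists of equal covered length that share was 2.52% of the bins then gained. By construction of the rule, all gained bins lie within those limits. The RefSeq sequences (build GRCh38.p14) of 4 of these promoters, from 250 bases before to 50 bases after the start, are shown because they sit in the gained bins with the largest differences that held a promoter; capitals mark CG dinucleotides.
ZNF595 promoter, GRCh38.p14, chr4:53071-53370, + strand: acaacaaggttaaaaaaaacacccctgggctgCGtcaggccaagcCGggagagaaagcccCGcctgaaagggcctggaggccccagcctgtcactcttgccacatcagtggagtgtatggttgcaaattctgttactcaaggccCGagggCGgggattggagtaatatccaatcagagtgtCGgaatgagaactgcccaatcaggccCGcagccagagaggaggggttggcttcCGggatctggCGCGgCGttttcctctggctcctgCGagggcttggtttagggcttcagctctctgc
SERPINA4 promoter, GRCh38.p14, chr14:94561192-94561491, + strand: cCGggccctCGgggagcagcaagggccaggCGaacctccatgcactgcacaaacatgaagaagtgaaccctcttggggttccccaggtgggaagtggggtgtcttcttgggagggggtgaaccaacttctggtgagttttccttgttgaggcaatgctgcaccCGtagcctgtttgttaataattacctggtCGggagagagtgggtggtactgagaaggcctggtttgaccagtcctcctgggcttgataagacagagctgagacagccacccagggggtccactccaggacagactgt
TBX5 promoter, GRCh38.p14, chr12:114407963-114408262, - strand: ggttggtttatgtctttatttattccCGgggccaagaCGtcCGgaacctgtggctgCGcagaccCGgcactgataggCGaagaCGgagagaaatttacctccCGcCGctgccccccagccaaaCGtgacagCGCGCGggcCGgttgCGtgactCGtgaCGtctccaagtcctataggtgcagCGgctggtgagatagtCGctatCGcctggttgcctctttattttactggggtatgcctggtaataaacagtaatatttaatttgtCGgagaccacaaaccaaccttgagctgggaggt
ZNF793 promoter, GRCh38.p14, chr19:37506689-37506988, + strand: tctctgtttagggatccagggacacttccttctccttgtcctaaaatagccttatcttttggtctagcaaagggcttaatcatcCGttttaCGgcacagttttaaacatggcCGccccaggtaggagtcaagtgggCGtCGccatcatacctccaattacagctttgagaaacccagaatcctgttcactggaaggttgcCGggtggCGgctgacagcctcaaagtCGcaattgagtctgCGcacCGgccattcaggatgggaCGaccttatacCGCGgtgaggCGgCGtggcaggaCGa

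The ZNF595 promoter, which holds 12 CG dinucleotides, lay under an island in 6 of the 8 libraries with the EZH2 inhibitor and in 1 of the 8 without it. Its mean coverage was 75% with the inhibitor, against 12.5% without it. The promoter of SERPINA4, which encodes the protease inhibitor kallistatin, was covered at 50% with the inhibitor and 21.2% without it, and holds 5 CG dinucleotides. At TBX5, which encodes a transcription factor of heart and limb development, the promoter shown holds 21 CG dinucleotides and was covered at 50% with the inhibitor and 12.5% without it. The ZNF793 promoter, with 16 CG dinucleotides, differed from its bin: an island reached it in 1 library with the inhibitor and in 0 without it, so the gain of its bin lay beside the promoter. No island reached the promoters of KANK1, LOC124904708, ZNF540, GPR26 and ZNF613 in any library, though their bins were gained. At ITPRID1 the promoter was covered at 31.7% with the inhibitor and 37.5% without it, and the remaining promoters were covered more with it. In all, 17 promoters of 16 genes lay in gained bins, with a median of 15 CG dinucleotides on either strand, against 12 in the promoters of tested bins and 21 in all promoters of the table. At least 10 CG dinucleotides were held by 58.8% of the promoters in gained bins, 54.0% of those in tested bins and 70.1% of all promoters.

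In the gained bins the difference with the inhibitor was moderate for most and large for a few. The median difference was 29.8 points and the largest 77.5 points, with 645 bins at 30 points or more, 128 at 40 or more and 31 at 50 or more. The 179 bins just inside the limit, at 25 to 26 points, averaged 50.4% in Combo, 46.0% in EPZ, 25.95% in P38i and 19.7% in Control. The 179 bins just outside it, at 24 to 25 points, averaged 48.0% in Combo, 43.9% in EPZ, 24.95% in P38i and 18.2% in Control. The limit therefore falls within a continuous range of differences, with as many bins on its outer as on its inner edge.

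Mean coverage of the gained bins was 49.4, 47.8, 64.3 and 62.7% in the Combo libraries and 40.3, 45.2, 60.1 and 57.7% in the EPZ libraries. It was 21.6, 28.7, 29.2 and 20.02% in the P38i libraries and 29.7, 19.5, 13.8 and 11.6% in the Control libraries. Every library with the EZH2 inhibitor lay above every library without it, as the rule favours. Libraries with the inhibitor averaged 53.4% ± 8.91 and those without it 21.8% ± 6.99 (SD, n = 8 on each side), a difference of 31.7 points, whereas over the tested bins the same difference was -6.43 points. Gained bins with no island at all made up 5.01 to 15.3% of the set in a library with the inhibitor and 29.1 to 59.6% in a library without it. In 104 gained bins (7.89%) no island was called in any of the 8 libraries without the inhibitor, against 1.55% of the tested bins. Coverage was below that of the surroundings without the inhibitor and above it with the inhibitor, as the rule favours. At 10 kb upstream the means were 43.8% in Combo, 39.7% in EPZ, 34.1% in P38i and 29.2% in Control.

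**Figure D1:**
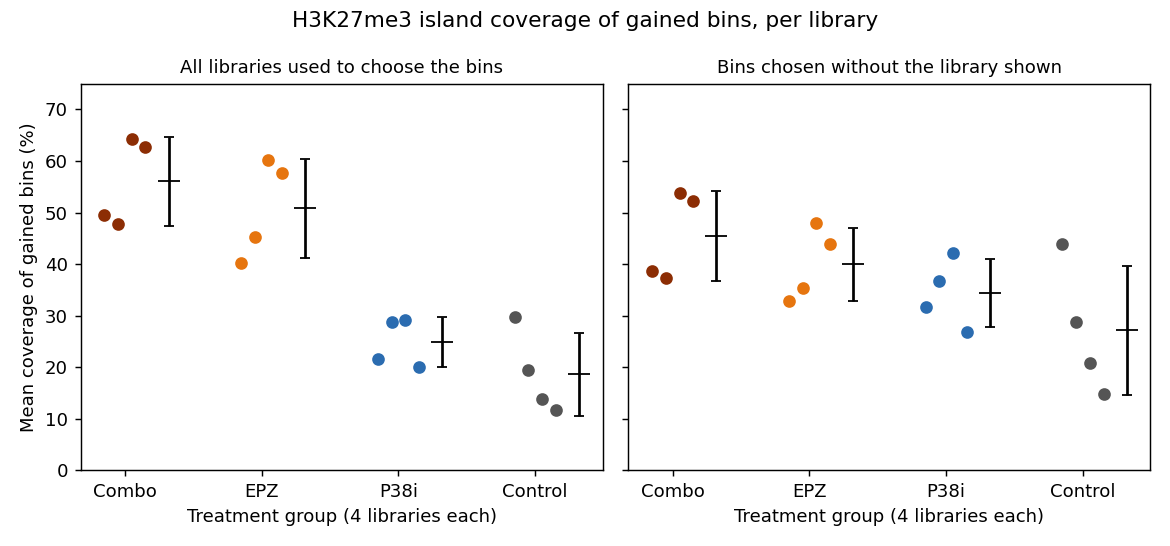
Mean H3K27me3 island coverage of gained bins (vertical axis, %) in each of the 16 libraries (points) by treatment group, with the group mean and SD (n = 4). On the left the bins were chosen with all libraries, and the groups with the EZH2 inhibitor (Combo, EPZ) lie wholly above those without it; on the right each library is read only in bins chosen without it, and the groups overlap.

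The difference was smaller in libraries that had no part in the choice. When each library was left out of the choice and then read in the bins chosen from the other 15 libraries, a reading added after the data were seen, its mean coverage was 42.7% ± 7.93 for libraries with the inhibitor and 30.7% ± 10.1 for libraries without it (SD, n = 8 each). The left-out libraries ranged from 32.7 to 53.8% with the inhibitor and from 14.9 to 44.0% without it. The sides overlapped, and the difference was 11.97 points in place of 31.7. By group the left-out means were 45.5% ± 8.71 in Combo, 39.9% ± 7.12 in EPZ, 34.4% ± 6.60 in P38i and 27.1% ± 12.6 in Control (SD, n = 4). Control replicate 1, at 44.0%, was the library without the inhibitor that lay highest. It also had the second-longest list, with 650 Mb covered.

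The 2 pairs of groups that differ by the EZH2 inhibitor, EPZ against Control and Combo against P38i, share no library, so bins chosen in the first can be read in the second. EPZ exceeded Control by at least 25 points in 3025 tested bins (3.45%). In those bins Combo libraries averaged 41.1, 38.6, 53.2 and 52.2%, against 38.7, 41.2, 45.5 and 31.3% in P38i libraries. The difference that chose the bins averaged 33.4 points and the difference in the libraries not used averaged 7.10 points, against -6.01 points over all tested bins. Combo was above P38i in 64.9% of them, against 34.1% of tested bins, and by at least 25 points in 513 of them (17.0%), against a background of 3.25%.

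The reverse reading gave a similar size. Combo exceeded P38i by at least 25 points in 2855 tested bins, where EPZ libraries averaged 28.0, 30.2, 42.0 and 39.6%, against 39.9, 29.3, 23.3 and 17.2% in Control libraries. EPZ minus Control averaged 7.51 points there, against -6.85 points over all tested bins, and reached 25 points in 513 of them (18.0%), against a background of 3.45%. In each reading the groups not used to choose the bins overlapped library by library. Leaving out 1 library at a time kept both readings positive, with the lowest mean at 4.46 points in Combo minus P38i, without P38i replicate 4, and at 4.101 points in EPZ minus Control, without Control replicate 4. The highest were 9.66 points without Combo replicate 2 and 11.7 points without Control replicate 1.

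**Figure D2:**
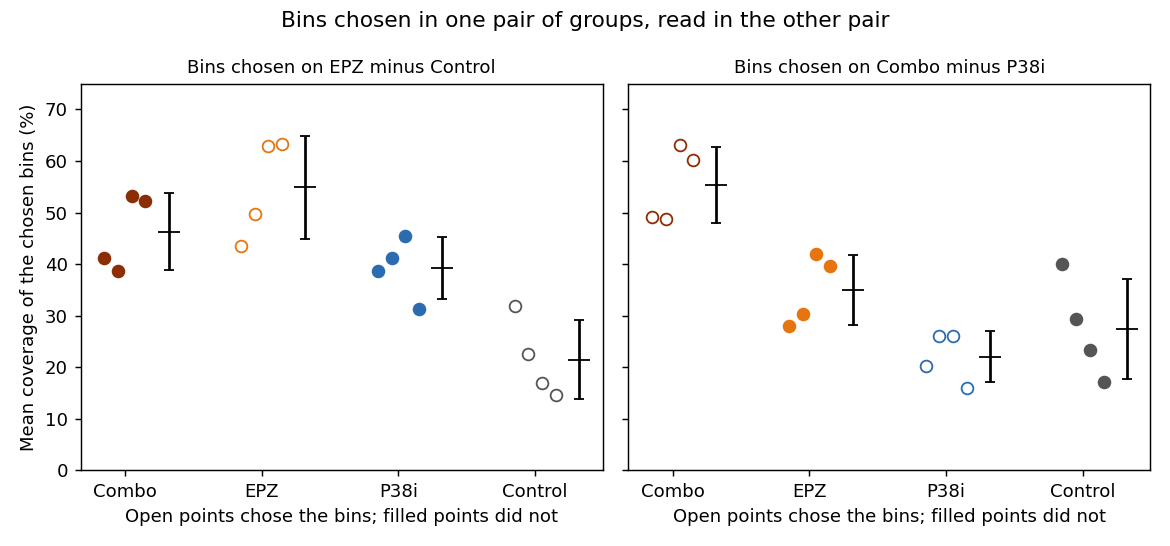
Mean island coverage (vertical axis, %) per library in the bins chosen on EPZ minus Control (left) and on Combo minus P38i (right), with group mean and SD (n = 4). Open points are the libraries that chose the bins; among the filled ones, Combo lies higher than P38i by 7.10 points on the left and EPZ higher than Control by 7.51 points on the right, with overlapping libraries.

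Few single bins passed a test across all bins in the libraries not used. With limma and Benjamini-Hochberg adjustment over the 87730 tested bins, Combo minus P38i was higher at an adjusted p under 0.05 in 1 of the 3025 bins, against 0.00228% of tested bins. EPZ minus Control was higher in 0 of the 2855 bins, against 0.0% of tested bins. At an unadjusted p under 0.05, limma gave 245 bins higher in Combo than in P38i (8.1%, background 1.95%) and 281 bins higher in EPZ than in Control (9.84%, background 2.16%). The bin that passed was chr11:133340001-133350000 (hg38), inside OPCML. It was covered at 78.0, 100, 92.0 and 66.0% in Combo libraries and at 70.0, 64.0, 70.0 and 34.0% in EPZ libraries, and no island touched it in any of the 4 P38i or 4 Control libraries. Combo minus P38i was 84.0 ± 12.9 points (SE, limma adjusted p = 0.0492). That adjusted p no longer passed when any library other than EPZ replicate 4 was left out.

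Across the series, the 8 libraries with the inhibitor all lay above the 8 without it in 18 tested bins (0.0205%). Of these, 17 were gained bins, a count the rule itself favours.

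The main effect of the p38 inhibitor, Combo and P38i against EPZ and Control, and the interaction of both inhibitors use contrasts that are balanced against the one that chose the bins. The p38 effect had a median of 6.25 points over the gained bins, against 3.25 points over the tested bins. With limma it passed an adjusted p under 0.05 in 1 gained bin, against 2 tested bins in all (0.00228%). At an unadjusted p under 0.05, 96 gained bins were higher with the p38 inhibitor (7.28%, background 5.66%) and 7 were lower (0.531%, background 1.11%). The interaction had a median of -1.5 points over gained bins and 0.5 points over tested bins. No bin passed for the interaction (0.0% of tested bins, lowest limma adjusted p = 0.0599). At an unadjusted p under 0.05 the interaction was higher in 35 gained bins (2.66%, background 2.06%) and lower in 33 (2.5%, background 1.7%). The median SE of the interaction was 23.04 points in a gained bin, so with 4 libraries a group an interaction of that size could not be told from 0 in a single bin.

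The gained bin that passed for the p38 inhibitor was chr2:90390001-90400000, on the short arm of chromosome 2 with no protein-coding gene in it. It was covered at 100% in all 4 Combo libraries and had no island in the other 12 libraries. The p38 effect was 50 ± 7.42 points (SE, limma adjusted p = 0.03). It came from Combo alone, since P38i libraries did not differ from Control libraries. In this bin it therefore cannot be told apart from an interaction of both inhibitors. Combo minus P38i was 100 points, a difference that chose the bin and has no test here, and EPZ minus Control was 0. No group had any spread between its libraries in this bin. The SE thus rests on the spread that limma takes over from other bins, and the p-value may be too low. The p38 call in this set was lost without Combo replicate 1 or 3, without any EPZ, P38i or Control library, with lists of equal covered length, and with covered length as a covariate.

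Gained bins differed among themselves in which pair of groups carried them. EPZ exceeded Control by at least 25 points in 937 of them and Combo exceeded P38i by at least 25 points in 894, with 513 in both. In 51 the EPZ difference was under 10 points and in 68 the Combo difference was, while the EPZ difference was below 0 in 7 bins and the Combo difference in 10. A gene for the GABA-A receptor subunit gamma 3, GABRG3, held a bin of this one-sided kind. It was covered at 74.0, 70.0, 72.0 and 76.0% in Combo libraries and at 52.0, 12, 18.0 and 0% in EPZ libraries, against 18.0, 38, 22 and 0% in P38i libraries and 26, 22, 16.0 and 12% in Control libraries. Only the Combo libraries stood clear of the other groups there.

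Gained bins were unevenly placed along the genome. They lay within 5 Mb of a chromosome end in 17.4% of cases, against 1.66% of lost bins and 6.97% of tested bins, and their median distance to the nearer end was 20.1 Mb, against 49.1 Mb for lost bins and 34.97 Mb for tested bins. Chromosome 19 held 89 gained bins, which were 5.91% of its tested bins, and chromosome 20 held 104, or 4.67%, against 1.502% over all chromosomes. Together they held 14.6% of the gained bins, but 8.60% of those found with lists of equal covered length and 10.2% of those found with covered length as a covariate. The same chromosomes had the fewest losses, at 2.39% and 1.97% of tested bins against 10.1% over all chromosomes, while chromosome 4 had 0.665% gained and 18.3% lost. On chromosome 19 the median EPZ minus Control difference was 3.5 points and the median Combo minus P38i difference 0.5 points, against -5.5 and -5.0 points over all tested bins. On chromosome 20 these medians were 1.0 and 0.0 points.

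**Figure D3:**
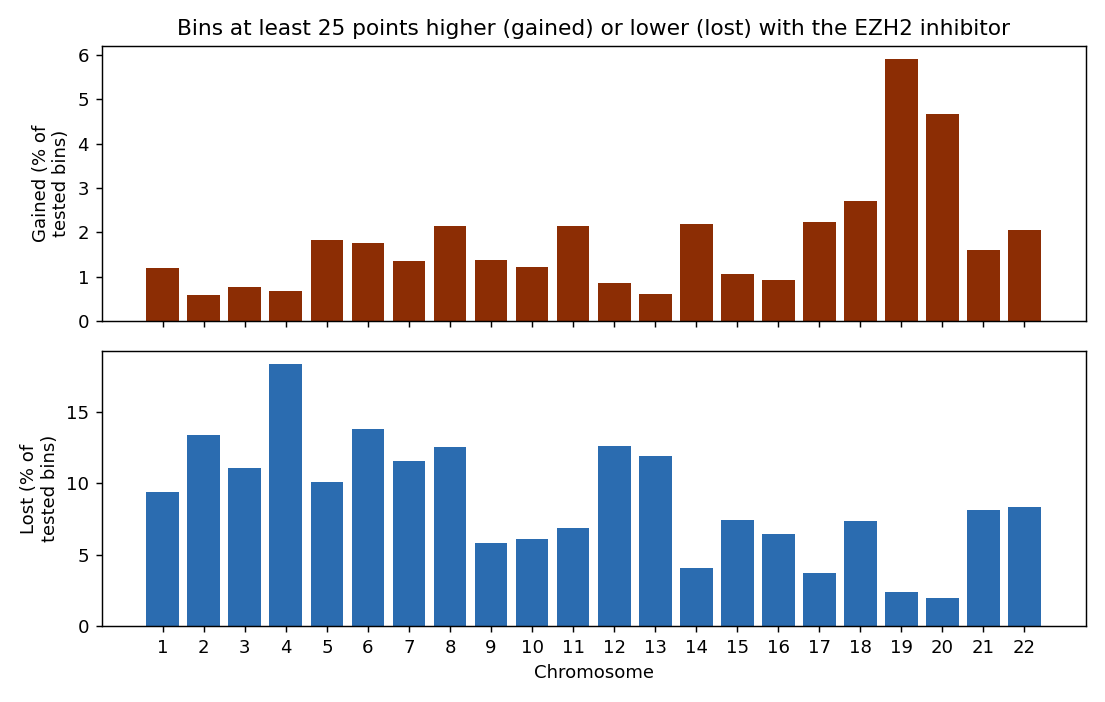
Percent of tested 10-kb bins per chromosome that were at least 25 points higher (top, gained) or lower (bottom, lost) in the 8 libraries with the EZH2 inhibitor than in the 8 without it. Chromosomes 19 and 20 have the highest gained shares, 5.91% and 4.67%, and the lowest lost shares, 2.39% and 1.97%.

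A ratio within each library sets a place against the rest of the same list. Mean coverage of tested bins within 5 Mb of an end, divided by that of the other tested bins, was 0.995 to 1.14 in Combo and 0.992 to 1.11 in EPZ, against 0.909 to 0.965 in P38i and 0.806 to 0.943 in Control. The libraries with and without the inhibitor did not overlap in this ratio. On chromosomes 19 and 20 the ratio to the other chromosomes was 1.10 to 1.22 in Combo and 1.06 to 1.22 in EPZ, against 0.985 to 1.09 in P38i and 0.880 to 1.01 in Control. There the lowest EPZ library lay below the highest P38i library. These ratios include the gained bins, were chosen as places after the gained bins were known, and carry no test.

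The difference in libraries that had not chosen the bins is given here by place, beside its mean over all tested bins of the same place. Among bins chosen on EPZ minus Control, Combo minus P38i averaged 11.9 points in the 467 bins within 5 Mb of an end, against 0.283 points over the tested bins there. On chromosomes 19 and 20 it averaged 13.8 points in 322 bins, against 0.461 points over their tested bins. In bins outside these places, zinc finger genes and coding promoters it averaged 5.38 points (2272 bins), against -6.77 points. The higher means near ends and on chromosomes 19 and 20 thus stand beside higher means of all tested bins there, and the distance between chosen and tested bins was similar in the 3 classes. Over zinc finger genes the mean was 20.95 points in 61 bins, against -0.273 points over tested bins. Among bins chosen on Combo minus P38i, EPZ minus Control averaged 13.9 points near ends (tested bins 2.20), 16.7 points on chromosomes 19 and 20 (tested bins 2.73), 20.8 points over zinc finger genes (tested bins -1.10) and 5.64 points elsewhere (tested bins -7.93). Over coding promoters the held-out means were 4.39 points in 53 bins for Combo minus P38i (tested bins -8.07) and 9.07 points in 38 bins for EPZ minus Control (tested bins -7.69). Bins that lie next to each other share islands and are not independent, and these place means have no test.

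Gained bins clustered loosely. They fell into 1118 runs of adjacent bins, of which 971 were single bins and 109, 26, 9 and 3 were 2, 3, 4 and 5 bins long. On a wider scale 514 of 2886 windows of 1 Mb held a gained bin, and the 74 windows with 5 or more held 605 of them (45.9%). The fullest windows were chr20:42000001-43000000 with 25 gained bins among 97 tested and 1 lost, chr20:55000001-56000000 with 24 and 0 lost, and chr11:133000001-134000000 with 23 and 0 lost. Around an average gained bin the difference dropped to 10.1 points at 10 kb upstream and 10.5 points at 10 kb downstream, to 6.22 and 6.16 points at 20 kb, and was still 3.80 points at 100 kb upstream. On average the flanking bins thus had a small positive difference. They were read in the same libraries that chose the bins, include other gained bins and share islands with them, so the rule favours this. The flanks were also not limited to tested bins.

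**Figure D4:**
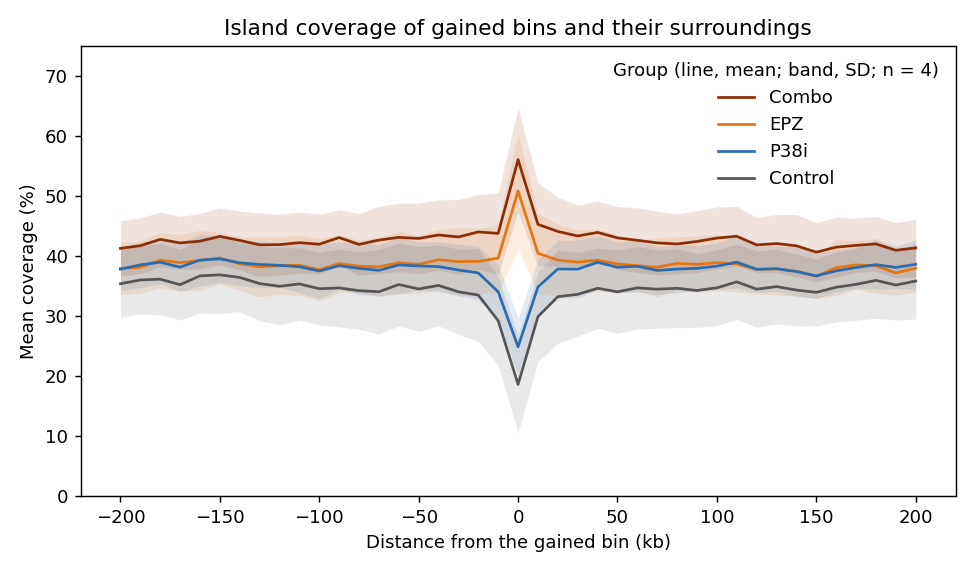
Mean island coverage (vertical axis, %) at gained bins (distance 0) and in 10-kb bins up to 200 kb to either side, by group (lines, mean; bands, SD over 4 libraries). At distance 0 Combo and EPZ rise to 56.1% and 50.8% while P38i and Control drop to 24.9% and 18.6%, as the rule favours. By 20 kb the groups lie within about 11 points of each other, in flanks that include other gained bins.

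The groups differed in how many islands touched a gained bin, as the rule favours, more than in the width of those islands. A gained bin was touched by 1.36 ± 0.108 islands in Combo and 1.29 ± 0.0674 in EPZ, against 0.815 ± 0.157 in P38i and 0.585 ± 0.121 in Control (SD, n = 4). The median width of those islands was 5.50 ± 0.702 kb in Combo and 5.30 ± 1.47 kb in EPZ, against 5.10 ± 1.45 kb in P38i and 5.60 ± 1.80 kb in Control. Over the whole lists it was 5.05 kb in Combo and 4.95 kb in EPZ, against 5.65 kb in P38i and 5.95 kb in Control. By these group means, islands at gained bins were wider than their lists with the inhibitor and narrower without it, which the rule also favours. EPZ replicate 2 showed no difference, at 4.6 kb in both. Control replicate 1 went the other way, at 7.8 kb against 7.4 kb.

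Of the 3 runs of 5 gained bins, chr19:20870001-20920000 had the largest mean difference and lay 3.25 kb from ZNF85, a gene of the KRAB zinc finger family, among pseudogenes. It was covered at 50, 37.6, 68.4 and 82.0% in Combo libraries and at 32, 39.2, 66.8 and 32.8% in EPZ libraries, against 12, 6.8, 0 and 0% in P38i libraries and 0% in all 4 Control libraries. All libraries with the inhibitor lay above all without it, as the selection favours. The run chr19:56480001-56530000 overlapped ZNF471, another KRAB zinc finger gene. Its coverage was 60, 70.8, 71.6 and 72.8% in Combo and 53.6, 48.4, 72.0 and 75.2% in EPZ, against 32.8, 45.2, 40.4 and 31.2% in P38i and 45.2, 24.0, 1.2 and 0% in Control. Control replicate 1 stood near the P38i libraries there and the other Control libraries lay lower.

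On chromosome 4 near the short-arm end, 2 adjacent gained bins overlapped ZNF595. In chr4:50001-60000, which holds the promoter shown above, coverage was 92.0, 100, 100 and 100% in Combo and 0, 58.0, 100 and 100% in EPZ, against 0, 100, 0 and 30% in P38i and 0% in all 4 Control libraries. EPZ replicate 1 and P38i replicate 2 each went against the rest of their group. The difference was 65.0 points in this bin and 66.5 points in the next.

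The largest difference of any bin, 77.5 points, was in chr2:89830001-89840000 within the immunoglobulin kappa locus (IGK). Coverage was 100, 20, 100 and 100% in Combo and 52.0, 100, 100 and 100% in EPZ, against 0, 0, 24.0 and 22% in P38i and 0, 0, 6.0 and 0% in Control. The run that holds it, chr2:89810001-89850000, averaged 74.1% ± 21.7 in Combo and 71.1% ± 27.5 in EPZ, against 27.2% ± 4.44 in P38i and 11.6% ± 13.7 in Control (SD, n = 4). Combo replicate 2 and EPZ replicate 1 were the low libraries of their groups, and still lay above all libraries without the inhibitor. The nearest protein-coding gene of the table was 509 kb away.

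Several other runs lay in gene-poor stretches of chromosomes 5, 8 and 20. The run chr20:55920001-55970000, 27.4 kb from CBLN4, a secreted organiser of synapses, averaged 54.1% ± 19.8 in Combo and 51.3% ± 27.9 in EPZ, against 16.0% ± 9.49 in P38i and 17.7% ± 12.9 in Control. On the short arm of chromosome 5 there were 3 of the 10 longest runs, the nearest genes being the homeobox genes IRX2 and IRX1 at 298 to 689 kb. In chr5:3050001-3090000 coverage was 81.5, 56.0, 71.0 and 84.5% in Combo and 34.0, 57.5, 40.5 and 38% in EPZ, against 24.5, 22.5, 18.0 and 31.5% in P38i and 32.5, 19, 0 and 13.5% in Control. Combo libraries other than replicate 2 lay above all EPZ libraries there. On chromosome 8 the run chr8:137280001-137320000 lay 810 kb from FAM135B, with a difference of 35.2 points.

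**Figure D5:**
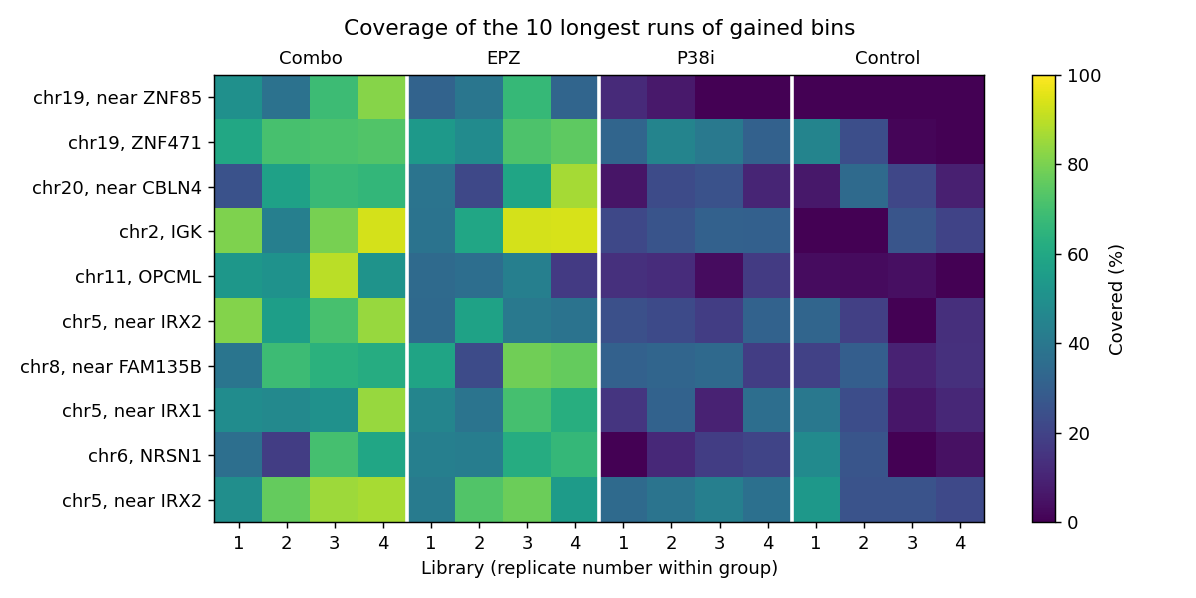
Island coverage (colour, % of the run) of the 10 longest runs of gained bins (rows, named by chromosome and the gene within or nearest) in each of 16 libraries (columns by group and replicate). In every row the Combo and EPZ libraries are on average higher (lighter) than the P38i and Control libraries, as the rule favours, though single libraries overlap in some rows; the run near ZNF85 has 0% in all Control libraries.

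Protein-coding genes lay in 29.4% of gained bins, against 41.1% of lost bins and 37.5% of tested bins. In all 190 genes overlapped a gained bin, of 5453 with a tested bin (3.48%). Genes of 300 kb or more overlapped 19.7% of gained bins and 18.5% of tested bins. The genes that held most gained bins, singled out after their values were seen, were PTPRT and OPCML, followed by L3MBTL4, PTPRN2 and SEMA5A, and then by CACNA2D3, DPP6 and FAT3 with equal counts.

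PTPRT, a receptor-type tyrosine phosphatase on chromosome 20, held 24 gained bins among the 116 bins of its span. Those bins averaged 57.5% ± 13.4 in Combo and 48.1% ± 5.16 in EPZ, against 22.7% ± 9.63 in P38i and 18.6% ± 10.5 in Control (SD, n = 4), and over its whole span the difference was 13.01 points. OPCML, a cell adhesion protein of the IgLON family that has been studied as a tumour suppressor, held 16, in which coverage was 55.6, 38.2, 82.5 and 71.9% in Combo and 34.9, 45.6, 51.4 and 43.9% in EPZ, against 23.9, 18.9, 18.1 and 18.5% in P38i and 33.6, 11, 13.2 and 5.62% in Control. L3MBTL4, whose protein has MBT domains that bind methylated lysines, held 14 over 30.4% of its span. PTPRN2, of secretory granule membranes, held 10, the axon guidance gene SEMA5A held 8, and CACNA2D3, an accessory subunit of calcium channels, DPP6, an accessory subunit of potassium channels, and FAT3, an atypical cadherin, held 7 each. Over the whole spans of L3MBTL4, PTPRN2 and SEMA5A the mean differences were 13.6, 11.2 and 8.80 points.

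Zinc finger genes were the group with the most genes in gained bins. Of 162 with a tested bin, 20 (12.3%, against 3.48% of all protein-coding genes) overlapped a gained bin and 0 averaged at least 25 points lower over the bins of its span, and the median of these averages was 1.08 points, against -3.12 points over all protein-coding genes. Their bins made up 2.81% of gained bins, 0.607% of lost bins and 0.585% of tested bins, and 1.59% of the gained bins found with lists of equal covered length. Of tested zinc finger bins, 7.21% were gained. Many of these genes lie on chromosome 19, where 5.91% of all tested bins were gained, and family and chromosome were not separated. Within libraries, coverage of tested zinc finger bins relative to other tested bins was 0.803 to 0.914 in Combo and 0.820 to 0.893 in EPZ, against 0.754 to 0.800 in P38i and 0.729 to 0.807 in Control. Combo replicate 2 lay just below Control replicate 1, and the sides otherwise did not overlap. These ratios include the gained bins, so the rule favours a separation. The family was chosen with earlier results known, and the ratios carry no test.

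Among these genes, ZNF560 had 3 gained bins that averaged 72.0% ± 15.1 in Combo and 71.0% ± 14 in EPZ, against 37.8% ± 13.2 in P38i and 29.8% ± 16.7 in Control (SD, n = 4). ZNF536, a repressor of neuronal differentiation, had 6 of its 50 bins gained, with coverage of 51.0, 49.0, 61.7 and 60.7% in Combo and 31.3, 42.3, 58.0 and 63.7% in EPZ, against 37.7, 28.0, 20.3 and 5.7% in P38i and 31.0, 10.7, 9.3 and 4.3% in Control. EPZ replicate 1 fell below P38i replicate 1, so the sides overlap at this gene. At ZNF454 the gained bin was covered at 86.0, 58.0, 82.0 and 50% in Combo and 56.0, 40, 68.0 and 70.0% in EPZ, against 0, 44.0, 46.0 and 26% in P38i and 0% in all 4 Control libraries. That bin is shared with its neighbour GRM6, a metabotropic glutamate receptor gene, and counts for both. ZNF471 and ZNF662 had 99.1% and 70.7% of their spans in gained bins.

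Genes for channels and receptors of excitable cells came next, with small numbers. Of 57 potassium channel genes with a tested bin, 7 (12.3%) overlapped a gained bin, against 3.48% of all protein-coding genes, with a median difference over the list of -3.17 points. LRRC38, an auxiliary subunit of large-conductance potassium channels, had 2 gained bins with coverage of 68.0, 59.0, 76.0 and 69.0% in Combo and 40, 48.0, 48.0 and 53.0% in EPZ, against 42.0, 34.0, 47.0 and 4.0% in P38i and 0, 5.0, 0 and 5.0% in Control. KCNQ3, a subunit of neuronal voltage-gated channels, had 3, KCNIP4 had 2 and KCNJ16 had 1. Of 31 glutamate and GABA receptor genes, 4 (12.9%, against the same 3.48%) overlapped a gained bin, GRM6, GRM5, GRID1 and GABRG3, while the list median was -7.0 points. A gene counted when any 1 of its bins was gained, so long genes had more chances. The 3.48% of all protein-coding genes is not matched for gene length. KCNIP4 had 2 gained bins among 123, and GRM5, GRID1 and GABRG3 had 1 each among 57, 78 and 58. Lists made by symbol prefix can hold a few genes outside the family.

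Lists of classic Polycomb targets and of other families gave small counts, to be read beside the 3.48% of all protein-coding genes. Of 91 homeobox and other developmental transcription factor genes with a tested bin, 1 overlapped a gained bin (1.10%), TBX5, and 2 averaged at least 25 points lower. TBX5 coverage was 64.0, 70.0, 54.0 and 66.0% in Combo and 36, 76.0, 90.0 and 34.0% in EPZ, against 34.0, 28.0, 38 and 0% in P38i and 48.0, 0, 0 and 44.0% in Control, with the sides overlapping. Of 20 WNT, BMP and FGF ligand genes, 1 did (5.0%), WNT7A. Gained bins held 0 of 7 HOX genes, 0 of 80 keratin and keratin-associated genes, 0 of 29 clustered protocadherins, 0 of 3 genes of the p38 pathway, 0 of 4 tumour suppressor and DNA repair genes, 0 of 1 housekeeping gene and 0 of 1 Polycomb gene with a tested bin. No gene for a writer of H3K36 or H3K9 methylation had a tested bin. Of 234 olfactory receptor genes 4 (1.71%) overlapped a gained bin, OR5M9, OR5M3, OR4N5 and OR8H1, and 16 averaged at least 25 points lower. OR5M9 and OR5M3 share a bin.

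Of the genes with the largest share of their span in gained bins, SERPINA4, NRSN1, which encodes a vesicle membrane protein of neurons, and LOC124904708 had 100%, and OR5M9 did as well. At SERPINA4 coverage was 70.0, 0, 100 and 64.0% in Combo and 44.0, 92.0, 68.0 and 38% in EPZ, against 0, 52.0, 6.0 and 30% in P38i and 78.0, 0, 4.0 and 0% in Control. Combo replicate 2 and Control replicate 1 ran against their groups. KLK12, a kallikrein protease, had 84.7% of its span in gained bins, OR4N5 82.2%, CYP2E1, a cytochrome P450 that oxidises ethanol, 77.6%, and PRSS37, a serine protease-like gene, 71.5%. The largest difference within a gene outside the zinc finger and OPCML bins was at GAS7, a growth arrest-specific gene, where chr17:10060001-10070000 averaged 89.0% ± 10.9 in Combo and 75% ± 24.8 in EPZ, against 13% ± 15.4 in P38i and 20.5% ± 29.2 in Control. PEG3, an imprinted zinc finger gene outside the naming rule, had 2 gained bins of 4, at 62.0% ± 34.7 in Combo and 65.0% ± 27.2 in EPZ, against 27.5% ± 9.88 in P38i and 30.5% ± 20.6 in Control.

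Of 273 miRNA hairpins of the RefSeq table that lay in tested bins, 22 lay in gained bins. MIR7151 was on chromosome 10. The other 21 lay in 3 gained bins of the imprinted DLK1-DIO3 cluster, which make up chr14:101020001-101040000 and chr14:101050001-101060000. No hairpin of the stretch between these lay in a gained bin. miRNAs pair with target transcripts chiefly through the seed, bases 2 to 8. The mature sequences (RefSeq) that share a seed with another miRNA of these 3 bins are shown because they make up the 3 seeds shared there. Other miRNAs of the cluster were not compared. Capitals mark the seed.
hsa-miR-379-3p: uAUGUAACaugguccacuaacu
hsa-miR-411-3p: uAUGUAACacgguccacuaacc
hsa-miR-494-5p: aGGUUGUCcguguugucuucucu
hsa-miR-323b-5p: aGGUUGUCcguggugaguucgca
hsa-miR-487a-3p: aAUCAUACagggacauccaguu
hsa-miR-154-3p: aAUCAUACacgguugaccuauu

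In the bin with most of these hairpins, chr14:101020001-101030000 with 10, coverage was 28.0, 0, 58.0 and 68.0% in Combo and 40, 72.0, 60 and 32% in EPZ, against 0, 30, 46.0 and 0% in P38i and 56.0, 0, 0 and 0% in Control. In chr14:101050001-101060000, which holds 7 hairpins including MIR154 and MIR323B, it was 66.0, 58.0, 88.0 and 96.0% in Combo and 74.0, 44.0, 78.0 and 60% in EPZ, against 44.0, 54.0, 48.0 and 0% in P38i and 58.0, 0, 0 and 0% in Control. The differences were 28.2, 31.2 and 45 points over the 3 bins. Control replicate 1 carried islands in all of them and the other Control libraries in none.

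The balance of gained and lost bins moved with covered length. As deposited, 1318 bins were gained and 8894 lost, so that gained bins were 12.9% of both. When every library was reduced to its widest islands up to the covered length of the shortest list, 4603 bins were gained and 5144 lost (47.2% gained). That step removed narrow islands unevenly. It kept all 82320 islands of EPZ replicate 1 and 67049 of Control replicate 4, but 18019 of Control replicate 1. The 47.2% is thus matched for covered length but not for island width. With covered length as a covariate 4028 were gained and 4580 lost (46.8%). Of the 1318 gained bins, 953 (72.3%) were also gained with lists of equal covered length, where they made up 20.7% of the gained bins. The readings in libraries that had not chosen the bins were 9.31 points for Combo minus P38i and 9.66 points for EPZ minus Control with those lists, against -0.183 and -0.326 points over the tested bins.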

How the data were processed

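H3K27me3 was profiled by ChIPmentation in 16 MDA-MB-231 libraries, 4 per treatment. The authors deposited 1 list of islands per library on build hg38, a plain start and end with no score, count or p-value, so depth and its precision are unknown. Per the submitters' processing notes the tools, named with no role or order, were SICER, which joins enriched windows into islands, Bowtie2 2.3.4.1, SAMtools 1.2, bedtools 2.28.0, Picard, FastQC, cutadapt and Trim Galore. Settings, read filters and the role of IgG in calling are not given in sources used here.

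From these lists the percent of each 10-kb bin of chromosomes 1 to 22 covered by islands was computed with Python 3.11.15 and checked with bedtools 2.31.1 in 500 bins (largest difference 0 points). Bins with a mean coverage of 5 to 95% entered 1 limma fit over 16 libraries (version 3.58.1 in R 4.3.3, with trend and robust settings), with Benjamini-Hochberg adjustment over 87730 bins and a threshold of 0.05. The code was tested on simulated data, in which 200 bins were shifted by a known amount in the p38 contrast. A shift of 30 points was recovered in 0 of them, 45 points in 77 and 60 points in 173. Low counts of called bins thus do not show that shifts of 30 points were absent. Genes, promoters and miRNAs came from RefSeq tables (GRCh38.p14) by position; the gene table has no strand.

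The members and the 14 gene lists were chosen with earlier results of these data known. Genes were named by the 10 longest runs, the 10 bins of largest difference, up to 4 genes per list and the 10 genes with the largest share of span in gained bins, which gave 28 genes; others are said to be outside that rule. Alternatives were other bin widths, offsets and limits, equal covered length, covered length as a covariate, islands of at least 1 kb, other filters and scales, a replicate block, and leaving out each library.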

Additional observations from a re-analysis of the deposited data

Results flagged for a closer look

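In groups of 4 libraries, 8 of the 56 groups examined at the named runs and miRNA bins had a library far from the other 3 of its group; chance gives about 1 group in 20.

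In the ZNF471 run on chromosome 19, Combo replicate 1 was covered at 60%, below the 70.8 to 72.8% of the other Combo libraries. In the OPCML run on chromosome 11, Combo replicate 3 was covered at 89.5%, above 51.0 to 53.0% in the others. In the run near IRX1 on chromosome 5, Combo replicate 4 was at 84.5%, above 47.0 to 50.5%. In the chromosome 5 run at chr5:2330001-2370000, Control replicate 1 was at 53.5%, above 22 to 25.5%.

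Control replicate 1 stood apart in all 3 gained bins of the miRNA cluster on chromosome 14, at 56.0%, 42.0% and 58.0%, with 0% in the other Control libraries. In the second of these bins P38i replicate 2 was at 16.0%, with 0% in the other P38i libraries. Without Control replicate 1 the gained bins numbered 1651, and 1187 (90.1%) of the 1318 were among them.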

How the results depend on the processing

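The number of gained bins was 5254 with bins of 5 kb, 265 with bins of 20 kb, 2595 at 20 points, 645 at 30 points, 4603 with lists of equal covered length and 4028 with covered length as a covariate. It was 1076 to 1712 with 1 library left out. The mean difference over the gained bins was 30.1 to 38.1 points with lists of equal covered length, islands of at least 1 kb, the covariate, or libraries left out. Reading each library in bins chosen without it gave 11.97 points. Other bin widths, offsets and limits were not run for this mean. The share on chromosomes 19 and 20 was 8.60 to 16.4%, lowest with lists of equal covered length, and the share with a coding promoter 0.776 to 2.52%, highest with those lists. The share within 5 Mb of a chromosome end was 15.3 to 19.7% over the alternatives.

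Bins called by limma were few, and the counts moved. The p38 main effect was called in 2 tested bins, in 1 with no filter on mean coverage, in 0 with the covariate or equal lists, and in 0 to 4 with 1 library left out. The interaction was called in 0 bins, in 1 with no filter, in 1 on the arcsine scale, and in 0 to 2 with 1 library left out. In the bins chosen on EPZ minus Control, Combo minus P38i was called in 1 bin, in 0 with the covariate or equal lists, and in 0 to 1 with 1 library left out. In the bins chosen on Combo minus P38i, EPZ minus Control was called in 0 bins, in 2 with no filter, in 3 on the arcsine scale, and in 0 to 3 with 1 library left out. The cause was not tested.

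With the replicate number as a block the p38 main effect was called in 0 bins, the interaction in 0, and the readings in libraries that had not chosen the bins in 0 and 0. Same-numbered libraries of different groups had correlations of -0.0684 to 0.086 in their deviations from group means, against -0.0701 to 0.0736 for other numbers. These values gave no sign of pairing by number, but cannot exclude a shared batch, on which the labels say nothing.

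Read depth is unknown, and coverage cannot tell a change in the mark from a change in how many islands were called. Coverage of a bin also jumps between 0 and 100% where an island is called or missed. Repeat content and how uniquely reads map were not computed for any bin, including those with the largest differences.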
